A study of Mus musculus with 61 samples.

Results

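Lysosomes were followed through 31 genes that code for their membrane proteins, their proton pump and their hydrolases. The list was chosen by function, with earlier results of these data known. It holds 4 genes of membrane proteins (Lamp1, Lamp2, Cd68 and Mcoln1), 11 of the vacuolar ATPase, or V-ATPase, 9 of enzymes that cut sugars from glycans and glycolipids (Gaa, Gla, Glb1, Hexa, Gusb, Manba, Man2b1, Naglu and Neu1), 5 of lipid breakdown (Lipa, Asah1, Smpd1, Ppt1 and Psap), the protease gene Tpp1 and the progranulin gene Grn. The deposited table of acetylated histone H3 lysine 27 (H3K27ac) names a gene of the list as the nearest for 287 of its 133129 windows, and the mm10 transcription start sites (TSS) of the 31 genes were set beside those of all 21774 protein-coding genes with a RefSeq TSS.

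Lysosomes are acid compartments in which cells break down what they engulf and their own worn components. The V-ATPase fills them with protons: its V1 part, in the cytosol, splits ATP, and its V0 part, in the membrane, carries the protons across. Microglia, the macrophages of the brain, rely on lysosomes to digest debris, myelin and synapses, and inherited loss of several of these enzymes leads to storage disease of the nervous system. Many lysosomal promoters hold an E-box, CACGTG, which TFEB and related factors are known to bind.

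All samples came from mouse brain. EKO mice carried a homozygous CRISPR/Cas9 deletion of the super-enhancer of Sall1, a transcription factor gene active in microglia, and WT mice were C57/Bl6 (C57BL/6J in the study's methods) without it, and the study's methods name adult males for both. The deletion was made in the germ line, so every cell type of these mice carries it. H3K27ac, a histone mark found where promoters and enhancers are active, was measured in microglia sorted by CD45, CD11b and CX3CR1 (2 EKO and 2 WT libraries) and in nuclei sorted for PU1 (microglia), NeuN (neurons) or Olig2 (the oligodendrocyte lineage), with 2 EKO and 2 WT libraries each. Binding of SALL1 was measured in EKO and WT microglia and in microglia of the wild-derived PWK and SPRET strains, that of SMAD4 in libraries labelled as mutant and in WT microglia, and that of the co-activator p300 in WT microglia (1 library) and WT PU1 nuclei (2 libraries). The labels of the SMAD4 mutant libraries name a conditional deletion of SMAD4 while other fields and the study's text name EKO, so they are called the libraries labelled mutant. The labels call the cells of the H3K27ac table microglia, whereas the study's text also names PU.1 nuclei. No label says that libraries of a group came from separate animals, so p-values measure the spread between these libraries, which may be technical. The other 30 of the 61 samples were input controls and were not used.

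The H3K27ac table gives HOMER tags per 1000-bp window on open chromatin, scaled by the authors to 10000000 tags a library. Whole tags could be recovered from it, and put the depth at 9963454 and 13392915 tags in EKO and 24357795 and 10047696 in WT libraries. EKO library 1 stood apart, with a sum over all windows of 9717180 normalized tags, against 3320790 in EKO library 2 and 5490100 and 3935870 in WT. The values below are therefore those after quantile normalization over the 4 libraries, unless called as deposited. Windows of the 7 microglial markers within 3000 bp of their TSS summed to 2003 and 599.6 tags as deposited in EKO and 1373 and 977 in WT microglia. Those of 6 markers of border macrophages (Mrc1, Lyve1, Cd163, Pf4, Ms4a7 and Cbr2) summed to 381 and 165 tags in EKO and 53.0 and 35.8 in WT, and 4 of the 6 were higher in both EKO libraries, while Lyve1 and Cd163 stayed at or under 16 in all libraries. Sums for monocyte, neuron and oligodendrocyte markers were 56.2 tags or lower in every library. Those of astrocyte markers were 18.1 and 4.48 tags in EKO and 43.9 and 35.8 in WT, and those of endothelial markers 19.1 and 11.2 in EKO and 45.2 and 32.8 in WT. Both sums were lower in both EKO libraries, but each came mostly from 1 gene, Slc1a3 and Pecam1. The exception was EKO library 2, where Slc1a3 held 0.75 and Aldh1l1 3.73 of the 4.48 astrocyte tags. Aldh1l1 and Flt1 stayed at or under 16 in all libraries and were not lower in both EKO libraries. Gfap, Aqp4 and Cldn5 had no such window. The part of these cells in the losses below was not tested.

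The 287 windows lay in 184 separate stretches. Of the windows, 144 lay in introns, 83 between genes, 40 at a promoter, 9 in exons and 9 at transcript ends. They numbered from 1 at Glb1 to 32 at Psap, with 98 within 3000 bp of a TSS (called promoter-side) and 189 farther away (called distal). A mean above 16 normalized tags was required for a test, which 167 windows passed, 87 promoter-side and 80 distal, of 55285 in the whole table. Of the 31 genes, only Atp6v0d2 had no promoter window among these.

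H3K27ac at the promoters of these genes differed little between EKO and WT microglia. The promoter window was the window closest to the TSS, used where it lay within 3000 bp and was tested. It had an adjusted p below 0.05 by limma in 4 of 30 genes, 3 higher and 1 lower. By that rule the promoter windows of 8.64% of all 9609 genes with such a window were higher and 5.46% lower. None of the 4 reached a fold of 2. Lamp1, which codes for a heavily glycosylated protein that lines the lysosomal membrane, had in its promoter window (chromosome 8, 13158747 to 13159747) 236 and 297 normalized tags in EKO microglia, against 139 and 141 in WT microglia (log2 change 0.91, SE 0.165, adjusted p = 0.000377). Both EKO libraries lay above both WT libraries there, and the same held in all 5 tested windows of Lamp1, with log2 changes of 0.47 to 0.99. Gaa, the gene of the acid alpha-glucosidase that breaks down glycogen (chromosome 11, 119267438 to 119268438), had 177 and 208 normalized tags in EKO microglia, against 95.0 and 97.7 in WT microglia (log2 change 0.99, SE 0.183, adjusted p = 0.000471). Atp6v0d1, the gene of the widely expressed d subunit of V0 (chromosome 8, 105565651 to 105566651), had 414 and 433 normalized tags in EKO microglia, against 293 and 268 in WT microglia (log2 change 0.59, SE 0.126, adjusted p = 0.00164). In both genes the EKO libraries were the higher ones without overlap. In PU1 nuclei the TSS of Atp6v0d1 was lower in EKO, not past the test, as given below. Cd68, the gene of a lysosomal glycoprotein typical of macrophages (chromosome 11, 69665686 to 69666686), went the other way, with 139 and 101 normalized tags in EKO microglia, against 165 and 190.3 in WT microglia (log2 change −0.58, SE 0.192, adjusted p = 0.0318), and the groups again did not overlap.

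**Figure D1:**
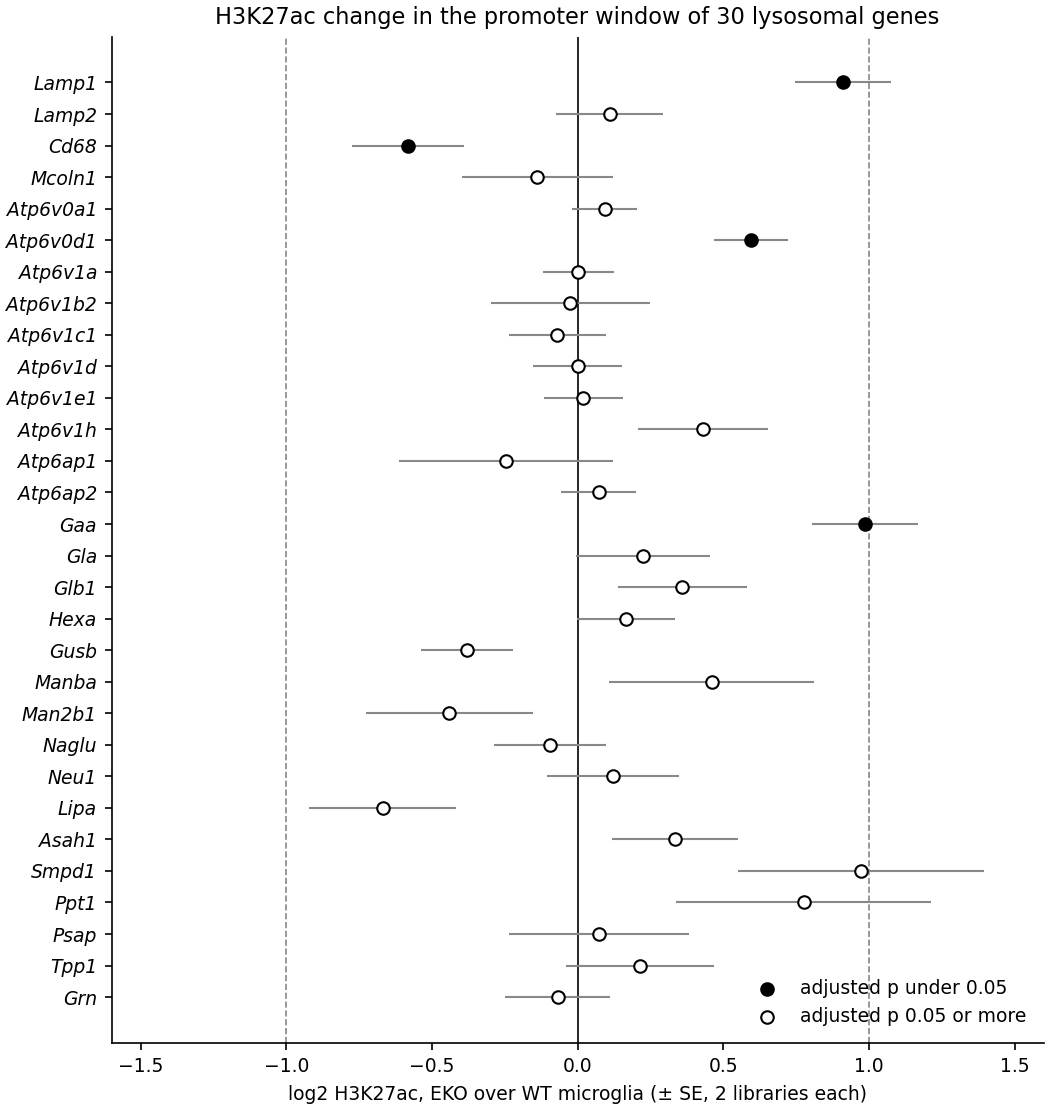
Log2 change of H3K27ac in EKO over WT microglia (x axis, ± SE, 2 libraries each) in the promoter window of the 30 genes with a tested one (y axis, by role); filled points have an adjusted p below 0.05. Lamp1, Gaa and Atp6v0d1 lie to the right of 0 and Cd68 to the left, and all points lie between −0.67 and 0.99.

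Among the other membrane genes the promoter change was 0.11 at Lamp2, whose product also takes up proteins in chaperone-mediated autophagy, and −0.14 at Mcoln1, the gene of a calcium channel of the lysosomal membrane. The V-ATPase promoters carried some of the highest levels. Atp6v0a1, which codes for an a subunit of V0 that forms part of the proton path, had 469 and 516 normalized tags in EKO microglia, against 448 and 474 in WT microglia, and Atp6v1a, which codes for the catalytic A subunit of V1, had 384 and 385 normalized tags in EKO microglia, against 362 and 407 in WT microglia. Neither differed beyond the spread, with log2 changes of 0.09 and 0.00. The promoters of the other V1 genes, Atp6v1b2 (nucleotide-binding B subunit), Atp6v1c1 (C subunit, which ties V1 to V0), Atp6v1d (central stalk), Atp6v1e1 (peripheral stalk) and Atp6v1h (regulatory H subunit), changed by −0.07 to 0.43 on the log2 scale, none past the test. Those of the accessory subunit genes Atp6ap1 and Atp6ap2 changed by −0.25 and 0.07, not past the test either.

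The 9 glycan hydrolase promoters had log2 changes of −0.44 to 0.99 with a median of 0.17, and only Gaa passed. The others were Gla (0.22) and Glb1 (0.36), genes of an alpha- and a beta-galactosidase, Hexa (0.17), of a subunit of the hexosaminidase that degrades GM2 ganglioside, Gusb (−0.38), of beta-glucuronidase, Manba (0.46) and Man2b1 (−0.44), of a beta- and an alpha-mannosidase, Naglu (−0.10), of heparan sulfate breakdown, and Neu1 (0.12), of a sialidase. Lipid genes spread more widely at their promoters, at −0.67 for Lipa (acid lipase, which frees cholesterol from its esters), 0.34 for Asah1 (acid ceramidase), 0.97 for Smpd1 (acid sphingomyelinase), 0.78 for Ppt1 (which removes palmitate from proteins) and 0.07 for Psap (the precursor of the saposins, which present sphingolipids to their enzymes). None of these passed. The Smpd1 promoter was low, with 23.9 and 45.5 normalized tags in EKO microglia, against 13.1 and 20.3 in WT microglia (adjusted p = 0.102), and its EKO libraries were above WT without overlap. Tpp1, a tripeptidyl peptidase, changed by 0.21 and Grn by −0.07.

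RefSeq promoters (mm10, 250 bases before to 50 after the TSS) were available for 26 of the 31 genes, not for Asah1, Atp6v0d2, Atp6v1b2, Atp6v1c1 and Atp6v1h. CACGTG, which reads the same on both strands, was found in 8 of the 26 (30.8%), in 12.5% of 7375 genes with a tested promoter-side window and in 8.09% of all 27025 genes. The 8 were Lamp1, Gaa, Gla, Glb1, Naglu, Mcoln1, Atp6v0d1 and Atp6v1a. The longer TCACGTGA, searched on both strands, was in 4 of 26 genes (15.4%), against 2.45% of genes with a tested promoter-side window, and GTCACGTG, which can overlap it, in 6 of 26 (23.1%), against 5.44%. These stretches of the promoters, written 5′ to 3′ on the coding strand with each CACGTG in capitals, are shown because they hold a longer form upstream of the TSS:
Lamp1, chr8:13159113-13159158: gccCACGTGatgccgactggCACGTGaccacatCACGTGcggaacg
Mcoln1, chr8:3500428-3500473: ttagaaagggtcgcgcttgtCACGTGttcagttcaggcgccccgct
Mcoln1, chr8:3500454-3500499: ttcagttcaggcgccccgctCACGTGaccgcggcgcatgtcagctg
Atp6v1a, chr16:44139365-44139410: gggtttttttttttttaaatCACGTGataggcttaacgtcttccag
Gla, chrX:134601174-134601219: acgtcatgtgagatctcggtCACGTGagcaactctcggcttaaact
Gla, chrX:134601207-134601252: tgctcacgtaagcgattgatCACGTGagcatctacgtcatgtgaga
Glb1, chr9:114401010-114401055: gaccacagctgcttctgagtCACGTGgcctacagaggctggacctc
Naglu, chr11:101070001-101070046: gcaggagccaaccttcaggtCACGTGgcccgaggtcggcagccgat
Lamp1 and Glb1 lie on the plus strand with Mcoln1 and Naglu, and Gla and Atp6v1a on the minus strand. Lamp1 held 4 copies in its promoter, at −61, −45, −28 and −15 from the TSS. The promoter windows of the 8 genes with CACGTG had a median log2 change of 0.29, and 3 (Lamp1, Gaa and Atp6v0d1) were higher at an adjusted p below 0.05. The 18 genes without it had a median of 0.07, with none higher and Cd68 lower. Over all genes the medians were 0.05 with and 0.04 without CACGTG, and 10.6% and 8.35% were higher. These are descriptions, and no test of the motif was made.

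Over all windows, those of the lysosomal genes were called about as often as the rest of the table. By limma, at a Benjamini-Hochberg adjusted p below 0.05 over all tested windows and a fold above 2, 13 of 167 windows (7.78%) lost H3K27ac in EKO microglia, where 7.56% of all tested windows did. Another 11 (6.59%) gained it, against 8.68% of all tested windows. The called windows were all distal, 13 losing and 11 gaining of 80 (16.3% and 13.8%), against 11% and 11.6% of all distal windows. None of the 87 promoter-side windows was called by limma, edgeR or DESeq2, where limma called 3.31% of all promoter-side windows as losing and 5.08% as gaining. Of these 87, 17 had an unadjusted p below 0.05 (19.5%, against 27.2% of all promoter-side windows). At an adjusted p below 0.05 with no fold asked for, 3 were lower and 9 higher (3.45% and 10.3%), against 7.13% and 9.78% of all promoter-side windows. Without the fold threshold 17 of the 167 windows were lower and 23 higher, against 12.1% lower and 12.1% higher of all tested windows.

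The median log2 change was 0.07 in the windows of these genes (0.09 promoter-side, 0.03 distal) and −0.03 in all tested windows (0.02 and −0.10). Both EKO libraries lay below both WT libraries in 41 windows of these genes (24.6%) and above them in 55 (32.9%), against 31.5% and 29.4% of all tested windows. In the values as deposited these were 12 (7.19%) and 31 (18.6%), against 6.12% and 17.8% of all tested windows. H3K27ac is a bulk measure, so fewer cells of a type and less mark per cell cannot be told apart. The calls rest on the scaling and on all 4 libraries. On the values as deposited limma called 0 windows of these genes (71 losing and 450 gaining in the whole table). At an unadjusted p below 0.05 there were 9 of the 167 windows of these genes, and 3717 of all 55285 tested windows. Without EKO library 1 and without WT library 1 the median log2 change of the windows of these genes was 0.08 and 0.04. It was −0.01 and −0.04 in all tested windows. In those fits limma called no window of the whole table. It called 6 losing and 2 gaining without EKO library 2 (3.59% and 1.20%, against 3.51% and 2.28% of all tested windows), and 0 losing and 3 gaining without WT library 2 (0% and 1.80%, against 0.941% and 2.92%). All 24 called windows kept their direction in every alternative, and edgeR on the recovered tags called 23 of them and DESeq2 20. The alternatives reused the libraries from which these windows were picked at a fold above 2. A kept direction was thus likely from the start and is no separate support.

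**Figure D2:**
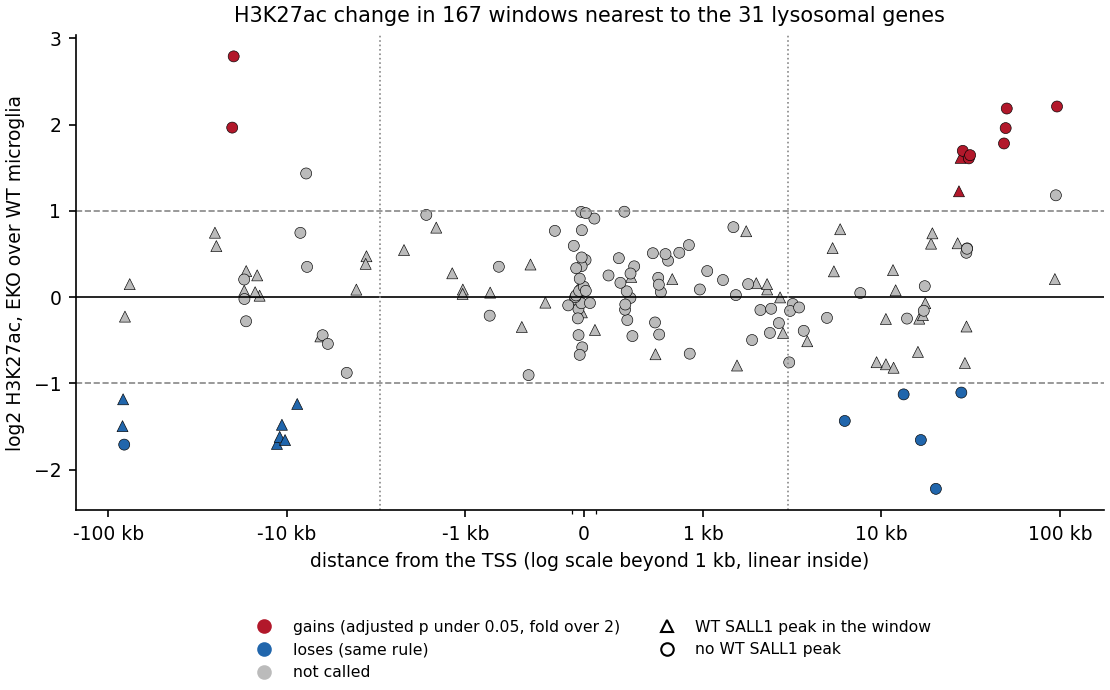
Log2 change of H3K27ac in EKO over WT microglia (y axis) against the distance from the TSS (x axis, log scale beyond 1 kb and linear inside) for the 167 tested windows of the 31 genes. The 13 losing and 11 gaining windows all lie more than 3000 bp away, and triangles, which mark windows with a SALL1 peak in WT microglia, occur among both.

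The 13 losing windows formed 9 stretches at 5 genes, Atp6v1c1, Atp6v1b2, Lamp2, Ppt1 and Psap, so those of a stretch share tags. A row of 5 windows upstream of Atp6v1c1 lost most together. The farthest, intergenic and at −11357 bp from the TSS (chromosome 15, 38650047 to 38651047), had 60.2 and 43.0 normalized tags in EKO microglia, against 147 and 192 in WT microglia (log2 change −1.70, SE 0.230, adjusted p = 1.66e-05). The window at −8741 bp had 57.4 and 56.8 normalized tags in EKO microglia, against 129 and 144 in WT microglia (log2 change −1.24, SE 0.214, adjusted p = 0.000240). The windows between them changed by −1.62, −1.48 and −1.66. EKO libraries were below WT without overlap in each of the 5, while the promoter window of the gene did not change past the test (log2 change −0.07). All 5 held a SALL1 peak in WT microglia and 4 a SMAD4 peak, and the region was listed as acetylated in no NeuN or Olig2 library.

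Upstream of Atp6v1b2, 3 intergenic windows lost H3K27ac at a much longer distance. The window at −82702 bp (chromosome 8, 69005534 to 69006534) had 55.5 and 36.7 normalized tags in EKO microglia, against 99.7 and 108 in WT microglia (log2 change −1.18, SE 0.253, adjusted p = 0.00174), and those at −83338 and −81522 bp changed by −1.49 and −1.71. All EKO values were below all WT values. Atp6v1b2 is the nearest gene in the table, which does not show that the region acts on it. These windows were also listed as acetylated in 3 or 4 of the 4 NeuN libraries and in no Olig2 library. Of them, 2 held a SALL1 peak.

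Lamp2 lost H3K27ac in 1 window, in an intron 16623 bp downstream of the TSS (chromosome X, 38439337 to 38440337), with 31.8 and 36.7 normalized tags in EKO microglia, against 113 and 107 in WT microglia (log2 change −1.66, SE 0.248, adjusted p = 5.42e-05). Its EKO libraries were below WT by a wide margin, and no SALL1, SMAD4 or p300 peak overlapped it. In Ppt1, the intronic windows at 13314 and 20182 bp lost. The one at 20182 bp had 6.70 and 3.51 normalized tags in EKO microglia, against 25.6 and 27.4 in WT microglia (log2 change −2.22, SE 0.602, adjusted p = 0.0101), and that at 13314 bp changed by −1.13. DESeq2 put the 2 Ppt1 windows at adjusted p = 0.102 and 0.0522, past its threshold in neither case. The table measures most Psap windows from an internal start of the gene. From there, the window at 6228 bp had 31.1 and 7.31 normalized tags in EKO microglia, against 46.2 and 40.4 in WT microglia. The window at 28032 bp had 17.9 and 44.1 normalized tags in EKO microglia, against 81.6 and 46.9 in WT microglia, so EKO library 2 was the lower EKO library at 6228 bp and the higher one at 28032 bp. EKO stayed below WT in both windows without overlap. Their adjusted p-values were 0.0337 and 0.0349 and the log2 changes −1.43 and −1.11. In the values as deposited, 11 of the 13 losing windows had both EKO libraries below both WT libraries, as did 66.8% of all losing windows of the table.

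The 11 gaining windows formed 6 stretches at 2 genes, with 8 windows at Atp6v0d2 and 3 at Manba. Atp6v0d2 codes for another form of the V0 d subunit, known in mice from osteoclasts and macrophages, and it gained at each of 3 places. In an intron, 27781 bp downstream of the TSS (chromosome 4, 19894285 to 19895285), a window had 263 and 289 normalized tags in EKO microglia, against 96.5 and 83.0 in WT microglia (log2 change 1.61, SE 0.174, adjusted p = 1.09e-06). The overlapping window at 27190 bp had 276 and 327 normalized tags in EKO microglia, against 125 and 130.4 in WT microglia (log2 change 1.23, SE 0.160, adjusted p = 1.11e-05), and the next, at 28564 bp, changed by 1.69. This was the only gained stretch of these genes that SALL1 and p300 peaks overlapped in WT cells.

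Upstream of Atp6v0d2, at −19848 bp (chromosome 4, 19941914 to 19942914), a window near the floor in WT had 41.8 and 49.3 normalized tags in EKO microglia, against 3.51 and 8.98 in WT microglia (log2 change 2.79, SE 0.506, adjusted p = 0.000392), and its neighbour at −20227 bp changed by 1.96. Beyond the gene, windows at 48617, 49680 and 50380 bp changed by 1.78, 1.96 and 2.19. All 8 gaining windows had both EKO libraries above both WT libraries. They were listed as acetylated in both EKO PU1 lists, in 0 to 2 of the 2 WT PU1 lists and in no NeuN or Olig2 list. The TSS of Atp6v0d2 itself carried little H3K27ac. Its closest window, at −4647 bp, held 7.03 and 2.99 tags as deposited in EKO and 5.75 and 8.96 in WT microglia and was not tested, and no region within 2 kb of the TSS was listed in any of the 12 nuclei libraries. The markers of border macrophages, 4 of 6 higher in both EKO libraries as given above, moved with these gains, and their part in them was not tested. The study counts Mrc1 among the genes raised in EKO microglia and describes H3K27ac gains in the Ms4a locus, to which Ms4a7 belongs. More border macrophages and a change within microglia therefore cannot be told apart by these markers.

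Manba gained in 2 overlapping intronic windows, the one at 31406 bp (chromosome 3, 135516517 to 135517517) with 45.3 and 40.4 normalized tags in EKO microglia, against 11.6 and 14.5 in WT microglia (log2 change 1.64, SE 0.386, adjusted p = 0.00361), and in an intergenic window at 96390 bp (log2 change 2.21, SE 0.709, adjusted p = 0.0276). EKO was above WT without overlap in all 3, but at low levels. The 2 intronic windows were also listed in all 4 Olig2 libraries and in no WT PU1 library. As deposited, all 11 gaining windows had both EKO libraries above both WT libraries, as did 98.3% of all gaining windows, with the high overall level of EKO library 1 included. Of the 11, 8 were listed in more EKO than WT PU1 libraries (72.7%, against 83.3% of all gaining windows), and 4 in both EKO and no WT PU1 library (36.4%, against 29.2%). Of the 13 losing windows, 2 were listed in more EKO than WT PU1 libraries (15.4%, against 12.9% of all losing windows), 0 in more WT libraries (against 31.8%) and 11 in equal numbers.

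**Figure D3:**
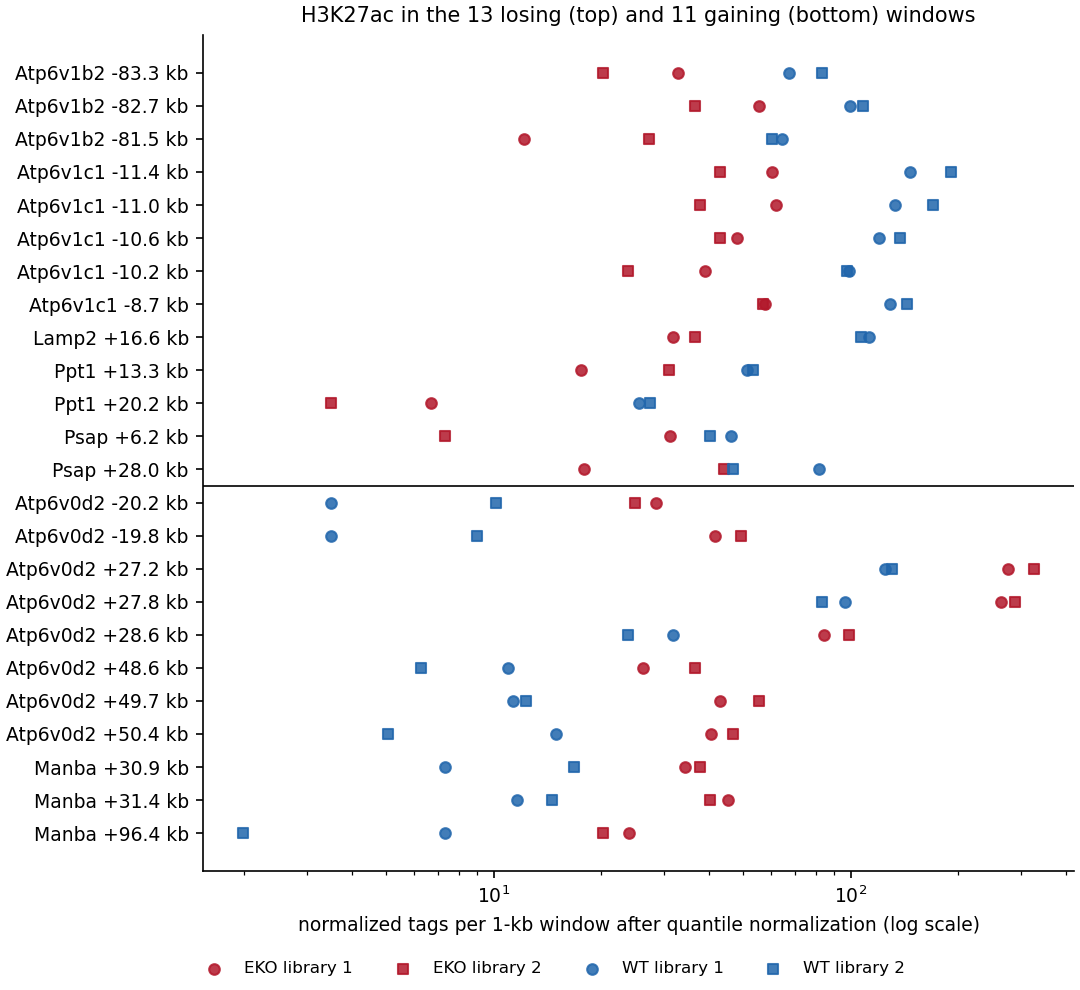
H3K27ac after quantile normalization, in normalized tags per 1-kb window (x axis, log scale), in each of the 2 EKO and 2 WT microglia libraries for the 13 losing (top) and 11 gaining (bottom) windows, named by gene and distance from the TSS. The EKO points lie left of the WT points in the losing windows and right of them in the gaining ones, with the widest relative gap at Atp6v0d2 −19848.

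The genes differed in how their tested windows lay around 0, called or not. All 10 tested windows of Atp6v0d2 and all 7 of Atp6v1a were higher in EKO, with medians of 1.74 and 0.56, and in Atp6v1a EKO lay above WT without overlap in 6. All 6 of Atp6v0a1 were higher too, with a median of only 0.17. Man2b1 was lower in all 4 windows (median −0.60, 3 without overlap), and Atp6v1c1 in 10 of 12 (median −0.84). Of all tested windows, EKO lay above WT without overlap in 29.4% and below it in 31.5%. No window of Atp6v1a, Atp6v0a1 or Man2b1 was called, and their windows partly overlap and so share tags. Hexa, Lipa, Asah1, Naglu, Neu1, Gusb and Grn had windows on both sides of 0, with medians of −0.39 to 0.21. At the Gusb window 600 bp into the gene, EKO had 72.7 and 85.6 normalized tags, against 122 and 129 in WT microglia (log2 change −0.66, SE 0.206, adjusted p = 0.0235), less than a fold of 2. The TSS of Gusb went the other way in PU1 nuclei, not past the test (log2 difference 0.57, limma, adjusted p = 0.377).

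SALL1 bound near many of these genes in WT microglia. The EKO list of reproducible SALL1 peaks held 7 peaks in all and overlapped a window or the TSS ± 2 kb of 0 of the 31 genes, whereas the WT list, of 15410 peaks, overlapped 19. The same count was not made over all genes, and a gene with more windows has more room for an overlap. The study's text describes larger sets of SALL1 and SMAD4 peaks than these deposited lists, so a gene without a peak here may have one there. At the TSS itself there was a WT peak for 8 genes (25.8%: Lamp1, Lamp2, Gusb, Man2b1, Grn, Asah1, Atp6v0a1 and Atp6v1a), against 16.5% of 8986 genes with a tested promoter-side window and 7.75% of all 21774 genes. Among windows, 67 of 287 (23.3%) held a peak, against 13.7% of all windows, and among distal ones 23.8%, against 15.6%. Each group has 1 list made from its libraries, so these shares have no replicate error and were not tested.

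Psap had the most, with 10 WT SALL1 peaks, and the highest score. The enrichment scores of the authors' peak caller ranked its peak at −56 bp from the internal start in the top 1.41% of the WT list (score 236) and that at 2271 bp in the top 2.36% (score 213). Next came Atp6v1b2, with peaks at −80666 and −82637 bp (scores 206 and 176), Atp6v0a1 at −1192 bp (172), Ppt1 at 17617 bp (151), Asah1 at 10572 bp (142) and Atp6v0d2 at 27718 bp (119). Over the 48 WT peaks of these genes, GGAAGT, the core that PU.1 is known to bind, was found on either strand within the central 208 bp of 23 (47.9%), against 44.8% of 15396 peaks. GTCTGG, a motif of SMAD factors, was in 3 (6.25%, against 11.7%), and CACGTG in 2 (4.17%, against 3.23%). The sequences of 4 peaks are given, on the plus strand of mm10 with GGAAGT or its complement ACTTCC in capitals, the first because its window lost H3K27ac, the second because it gained, the third because SMAD4 bound beside SALL1 in a losing window, and the last as a high-scoring peak whose windows were not called:
Atp6v1b2, chr8:69005988-69006210: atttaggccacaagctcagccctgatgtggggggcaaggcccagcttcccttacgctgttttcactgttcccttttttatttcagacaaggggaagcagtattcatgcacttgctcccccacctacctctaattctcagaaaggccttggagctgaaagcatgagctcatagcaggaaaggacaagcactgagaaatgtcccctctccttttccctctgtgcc
Atp6v0d2, chr4:19894744-19894952: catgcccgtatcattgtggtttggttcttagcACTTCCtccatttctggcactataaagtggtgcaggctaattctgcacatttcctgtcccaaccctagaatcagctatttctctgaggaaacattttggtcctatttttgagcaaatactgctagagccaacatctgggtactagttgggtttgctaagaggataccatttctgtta
Atp6v1c1, chr15:38652991-38653209: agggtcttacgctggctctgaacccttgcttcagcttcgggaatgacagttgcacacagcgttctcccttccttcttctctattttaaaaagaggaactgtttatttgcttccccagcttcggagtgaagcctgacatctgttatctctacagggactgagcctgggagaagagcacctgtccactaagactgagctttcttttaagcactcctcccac
Psap, chr10:60286621-60286843: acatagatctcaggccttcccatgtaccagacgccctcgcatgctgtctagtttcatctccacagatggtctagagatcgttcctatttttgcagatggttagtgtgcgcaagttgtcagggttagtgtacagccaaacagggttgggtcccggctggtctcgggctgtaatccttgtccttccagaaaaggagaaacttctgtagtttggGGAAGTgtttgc
The Atp6v0d2 and Psap peaks held 1 copy of the motif each and the other peaks held 0.

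Fewer peaks were listed in the wild-derived strains. PWK microglia had a SALL1 peak at 9 of the genes (Lamp1, Lamp2, Hexa, Psap, Ppt1, Asah1, Atp6v0a1, Atp6v0d2 and Atp6v1b2) and SPRET microglia at 4 (Psap, Asah1, Atp6v0a1 and Atp6v1b2), with lists of 3627 and 2245 peaks against 15410 in the WT list. The peaks lay in 8.71% of the windows of these genes in PWK and 3.83% in SPRET, against 3.42% and 2.20% of all windows. SMAD4 peaks touched 3 of the genes in the libraries labelled mutant, Psap, Grn and Atp6v1d, with 2333 peaks in the list, and lay in 2.44% of their windows, against 3.03% of all windows. In WT microglia, with 4024 peaks, they touched these 3 and also Hexa, Asah1, Atp6v0a1 and Atp6v1c1, 7 in all, and lay in 5.57% of the windows, against 4.89% of all windows. The highest-scoring WT peaks of the 7 genes lay in Psap at 29344 bp, in the top 1.07% of the list, and at Atp6v1c1, at −10617 bp, in the top 6.73%. p300 was found at 15 genes, at the TSS of 9 (29.0%, against 24.9% of genes with a tested promoter-side window), and in 15.3% of the windows, against 9.64% of all windows. With only the higher-scoring peaks of each WT list, SALL1 kept 14 genes, SMAD4 4 and p300 7. Those peaks lay in 16.4%, 3.48% and 9.06% of the windows of these genes, against 7.88%, 2.41% and 5.13% of all windows.

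**Figure D4:**
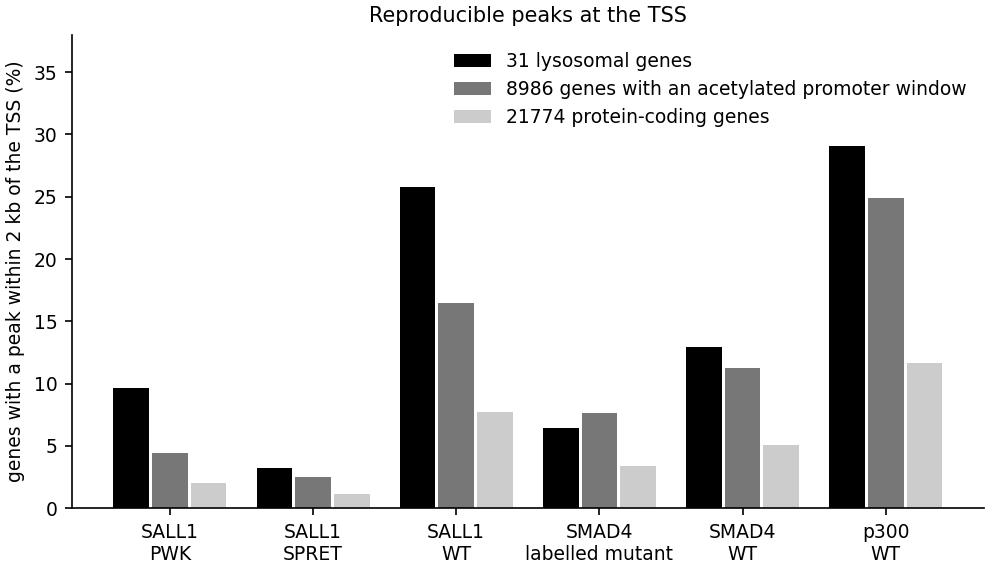
Share of genes (y axis, %) with a reproducible peak within 2 kb of the TSS for the 31 lysosomal genes, 8986 genes with a tested promoter-side window and 21774 protein-coding genes, for 6 peak lists (x axis). The lysosomal share is the highest of the 3 in each list (25.8% for WT SALL1) except SMAD4 in the libraries labelled mutant, where it is 6.45%, against 7.60% of genes with a tested promoter-side window. Some shares rest on few genes and lie close to that background. They are 1 gene in SPRET (3.23%, against 2.47%) and 4 genes for WT SMAD4 (12.9%, against 11.3%). No share was tested.

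Most windows with SALL1 were not called in EKO microglia. Of the 64 tested windows of these genes with a WT SALL1 peak, 7 lost (all at Atp6v1c1 and Atp6v1b2) and 2 gained (both at Atp6v0d2), and of the 103 without a peak, 6 lost and 9 gained. More of the windows with a peak were distal, and among distal windows 7 of 42 with a peak lost (16.7%) and 6 of 38 without (15.8%), while 2 and 9 gained (4.76% and 23.7%). Over all distal windows, 9.25% with and 11.95% without a peak lost, and 8.25% and 13.5% gained. Over windows on both sides, the median log2 change was 0.07 in each set. In the whole table, 8.03% of windows with SALL1 lost and 7.57% gained, and 7.39% of those without lost and 9.08% gained. In Psap, 14 of the tested windows held a SALL1 peak and 0 of them lost. Its window at 2285 bp, over the peak of score 213, had 195 and 200.5 normalized tags in EKO microglia, against 203 and 157 in WT microglia (log2 change 0.15), with WT library 2 below both EKO libraries and WT library 1 above them. At 29357 bp, where SALL1, SMAD4 and p300 peaks met, EKO was lower without overlap, with 146 and 129 normalized tags in EKO microglia, against 231 and 237 in WT microglia (log2 change −0.76, SE 0.163, adjusted p = 0.00169), short of a fold of 2. Of the 43 tested windows with a p300 peak, 0 lost and 2 gained, against 7.38% and 3.35% of all windows with p300.

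In sorted nuclei, these genes were acetylated at the TSS in neurons and the oligodendrocyte lineage as well as in microglia. A called H3K27ac region lay within 2 kb of the TSS of 27 to 29 of the 31 genes in each NeuN library and 28 or 29 in each Olig2 library, against 51.9% to 54.7% of all genes in NeuN and 43.9% to 46.7% in Olig2 libraries. PU1 libraries listed 28 and 28 in EKO and 17 and 30 in WT, against 41.5% and 39.6% of all genes in EKO and 18.6% and 41.3% in WT. WT library 1 had a short list of 11149 regions holding 8.04% of its tags. Atp6v0d2 was listed in no library. Lamp2 was listed in all PU1 and Olig2 libraries and in no NeuN library, and Cd68 in all 4 PU1, 3 of 4 NeuN and 2 of 4 Olig2 libraries. A list holds only regions over a fold of 4 above input, so a gene that is missing from it may still carry the mark.

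Signal density, in normalized tags per kb of called region after quantile normalization, was compared by limma in 2836 genes listed in all 12 libraries, 14 of them lysosomal. Beside NeuN, 6 of the 14 were higher in PU1 nuclei, where 22.2% of all tested genes were, and 0 were lower, where 24% were. At an unadjusted p below 0.05, 7 of the 14 differed, and 1488 of all 2836 tested genes did. Grn, the gene of progranulin, a secreted protein that also works in the lysosome, stood out with 125 to 173 in the 4 PU1 libraries and 27.9 to 37.7 in the 4 NeuN libraries (log2 difference 2.21, SE 0.186, adjusted p = 9.02e-09). Gusb had 59.6 to 96.1 in PU1 and 17.9 to 31.2 in NeuN nuclei (log2 difference 1.59, SE 0.207, adjusted p = 2.02e-06). PU1 libraries lay above NeuN in both genes without overlap. Naglu (1.10), Atp6v0a1 (0.74), Hexa (0.65) and Psap (0.45) were higher on the log2 scale as well.

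Beside Olig2, 6 genes were higher in PU1 nuclei, against 20.8% of all tested genes, and 1 was lower, against 22%. Grn had 125 to 173 in PU1 and 28.7 to 46.5 in Olig2 nuclei (log2 difference 1.91, SE 0.186, adjusted p = 4.09e-08), and Glb1 66.3 to 84.9 in PU1 and 20.9 to 33.5 in Olig2 nuclei (log2 difference 1.67, SE 0.190, adjusted p = 3.45e-07). Both genes were higher in every PU1 library. Atp6v0a1 (1.30), Gusb (1.17), Naglu (0.93) and Psap (0.56) followed. Lipa went the other way, with 33.4 to 41.5 in PU1 and 70.7 to 98.1 in Olig2 nuclei (log2 difference −1.12, SE 0.185, adjusted p = 3.67e-05). Lamp1, Mcoln1, Atp6v0d1, Atp6v1c1 and Atp6v1d passed neither comparison. The 14 genes were those listed in every library. This leaves out Lamp2, missing from all NeuN libraries, and also genes missing from single lists. The short list of WT PU1 library 1 held 17 of the lysosomal genes at the TSS. Being tested thus required enough PU1 signal for that list, so the counts cannot speak for the genes left out. Without that library 22 lysosomal genes were tested, with median log2 differences of 0.41 against NeuN and 0.46 against Olig2. With unlisted genes set to 0, 30 lysosomal genes were tested against NeuN. Of them, 11 were higher (36.7%, against 20.3% of all 14669 genes) and 2 lower (6.67%, against 23.8%). Of these, Lamp2 and Manba (higher) and Atp6v1h and Ppt1 (lower) were outside the 14. On the densities as deposited 2 of the 14 were higher against NeuN (14.3%, against 2.89% of all tested genes).

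**Figure D5:**
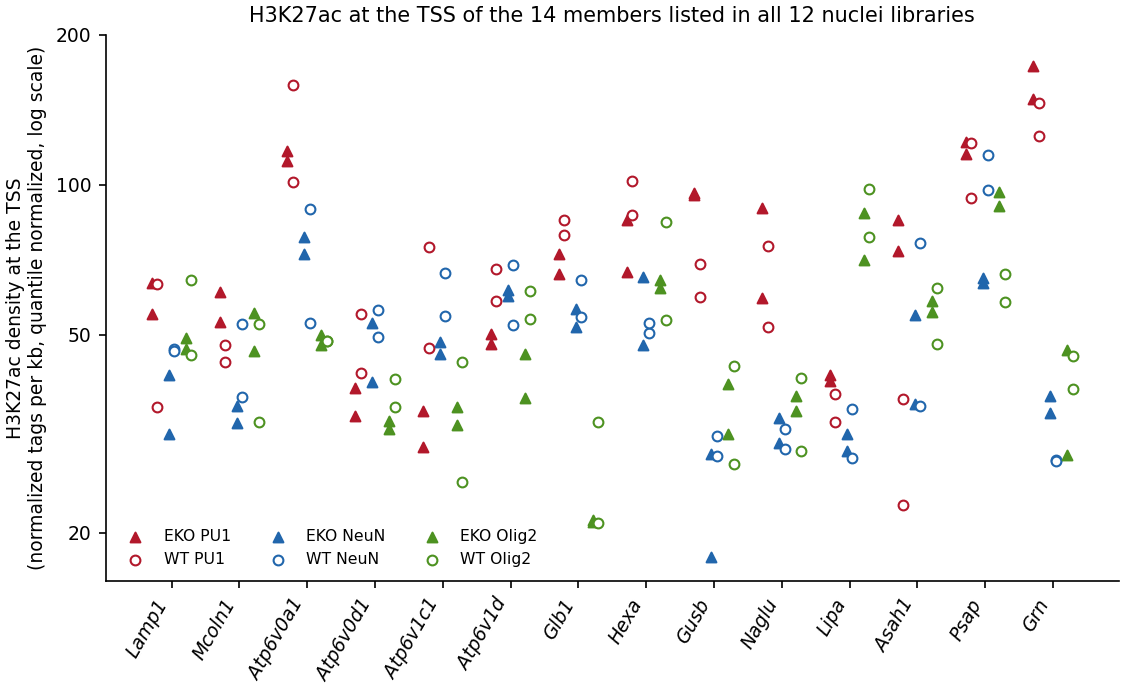
H3K27ac density at the TSS (y axis, normalized tags per kb, quantile normalized, log scale) in each of the 12 nuclei libraries for the 14 genes listed in all of them (x axis); filled points are EKO and open points WT. Grn and Gusb stand highest in PU1 over both other cell types, and Lipa highest in Olig2.

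Between genotypes, few of these promoters differed in the nuclei. In PU1 nuclei 1 of the 14 genes differed, against 1.69% of all tested genes. Asah1 had 84.9 and 73.5 normalized tags per kb in EKO and 37.2 and 22.8 in WT PU1 nuclei (log2 difference 1.44, SE 0.327, adjusted p = 0.0232). The EKO libraries were the higher ones, and the called regions covered 3859 and 3045 bp of the 4 kb in EKO, against 888 and 2716 bp in WT. The call was lost on the densities as deposited (adjusted p = 0.650), with unlisted genes set to 0 (adjusted p = 0.540) and without any one of the 4 PU1 libraries (limma, adjusted p = 0.0531 to 0.183). The log2 difference stayed between 1.09 and 1.84 in all alternatives. The microglia table gave the Asah1 promoter a log2 change of 0.34 (adjusted p = 0.287). Of the promoters that passed in microglia, Lamp1 and Atp6v0d1 were also tested in PU1 nuclei, and neither passed there. The log2 difference was 0.31 at Lamp1 (limma, adjusted p = 0.652) and −0.39 at Atp6v0d1 (adjusted p = 0.516). Atp6v0d1 thus went the other way, with 39.0 and 34.3 normalized tags per kb in EKO and 55.1 and 41.9 in WT PU1 nuclei. In NeuN and in Olig2 nuclei 0 of 14 genes differed by limma, and 0 (a share of 0%) of all tested genes did. At an unadjusted p below 0.05 there was 1 of the 14 in each, and 174 and 86 of all 2836 tested genes. The EKO effect differed between PU1 and NeuN nuclei in 0 of the 14, against 0.106% of all tested genes, and between PU1 and Olig2 in 0, against 0.282%. At an unadjusted p below 0.05 there were 3 and 2 of the 14, and 269 and 236 of all 2836 tested genes.

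Another 40 lysosome genes, listed by function with earlier results of these data known, were counted the same way in microglia. Of their 240 tested windows 11 lost (4.58%, against 7.56% of all tested windows) and 20 gained (8.33%, against 8.68%) H3K27ac. Of these, 5 losing and 11 gaining were among 124 promoter-side windows (4.03% and 8.87%, against 3.31% and 5.08% of all promoter-side windows). The other 6 and 9 were among 116 distal windows (5.17% and 7.76%, against 11% and 11.6% of all distal windows). Cd63, the gene of a tetraspanin of late endosomes, changed by 2.27 at −102 bp, Slc17a5, of the sialic acid exporter, by 1.79 at −564 bp, and Sgsh (1.55), Galc (1.05) and Tmem192 (1.19) also gained beside the TSS. Galc degrades galactosylceramide of myelin and Sgsh heparan sulfate. Atp6v0a2, of another a subunit of V0, lost in 5 of 6 windows, by −2.33 at −7470 bp, where SALL1 bound. Tcirg1, of the a subunit known from osteoclasts, changed by 3.16 at 22805 bp and by −2.03 at 1445 bp. The window at 22805 bp was near the floor in WT, with 6.57 and 3.98 tags as deposited, against 135.5 and 47.0 in EKO. Tcirg1 is only its nearest gene, which does not show that it acts on the gene.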

How the data were processed

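The members and all gene lists were chosen with earlier results of these data known. The authors mapped reads to mm10 with Bowtie2 and built HOMER tag directories, and the study's methods state versions of both tools only for other uses. The deposited microglia signal is HOMER tags scaled by the authors to 10000000 tags in 1000-bp windows on merged open-chromatin peaks, with the nearest gene as they annotated it. For nuclei, the deposited regions carry a tag signal that the authors normalized, and the depth is unknown. The deposited peak lists hold 1 set of IDR-reproducible peaks per group with the authors' enrichment score, used only to rank peaks.

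Windows with a mean above 16 tags were fitted with limma 3.58.1 (R 4.3.3, mean-variance trend) on log2(tags + 1) after quantile normalization, with Benjamini-Hochberg adjustment over all 55285. A pseudocount of 1 understates changes of low windows. The study used DESeq2; edgeR 4.0.16 and DESeq2 1.42.0 were run as alternatives on whole tags recovered by dividing by the step of each library, 99.7% to 100% of values being whole within 0.0051. For nuclei, the density of regions overlapping the TSS within 2 kb was fitted with limma over 6 groups of 2 libraries. Peaks were counted at an overlap of 1 bp or more. The TSS was that of the authors' annotation for 15831 genes and of RefSeq otherwise. All 31 members were named, with the promoter window where there was one and every called window. The fits were tested on simulated data. Same-numbered EKO and WT libraries did not deviate together (correlation of deviations 0.04 in microglia), so numbers were not used as pairs.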

Additional observations from a re-analysis of the deposited data

How the results depend on the processing

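Losing windows numbered 13 and gaining windows 11, and 0 and 0 on the values as deposited. Leaving out each library in turn gave 0 to 6 losing and 0 to 3 gaining windows. The construction of those fits, with 1 library in a group assumed to vary like the other, leaves fewer samples. With no fold threshold, an alternative chosen after seeing the data, 23 windows were higher. The counts of losing and gaining windows stayed within 1.5 times with edgeR, DESeq2, a pseudocount of 4, no filter on low values and the replicate block, and the block gave 13 and 11 windows. The block changed no other count of called members. The median log2 change was 0.35 as deposited (0.37 promoter-side, 0.31 distal), where all tested windows shifted to 0.28, and 0.041 to 0.089 without each library in turn (0.041 to 0.13 promoter-side, 0.018 to 0.17 distal). In nuclei, 2 genes were higher in PU1 than NeuN on the densities as deposited, and with unlisted genes set to 0 there were 11 higher and 2 lower, and without WT PU1 library 1, 1 lower. Against Olig2, 0 were lower as deposited, against 3.28% of all tested genes, and 2 with unlisted genes set to 0 (6.67%, against 18.1%). The shares of all genes against NeuN, as deposited and with unlisted genes set to 0, are given above. The EKO call in PU1 nuclei, Asah1, fell to 0 as deposited and to 0 without each of 3 PU1 libraries. Without WT PU1 library 2 the 1 call was Atp6v1c1, lower (adjusted p = 0.0390), and with unlisted genes set to 0 it was Atp6v1h, lower (adjusted p = 0.0334), so Asah1 was called in neither. With the higher-scoring peaks alone, SMAD4 touched 4 genes and p300 7. Except where shown by construction, the cause was not tested. The 24 called windows kept their direction in all alternatives, which reused the libraries they were picked from, with the call lost in 121 of 240 fits of single windows. Depth limits low windows most, and 120 of the 287 were not tested.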
